A study of Mus musculus with 4 samples.

Results

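The tumour necrosis factor (TNF) superfamily was examined by RNA sequencing of mouse pancreas samples labelled as ducts. Members were the gene models named Tnf, Tnfsf or Tnfrsf with a family number, together with Lta, Ltb, Ltbr, Cd40, Cd40lg, Cd27, Cd70, Fas, Fasl, Edar, Eda2r and Relt. This gave 44 of the 52535 gene models in the count files, 17 of them ligands and 27 receptors. The mice were C57BL/6, in 2 groups. One group held 2 wild-type libraries (WT 1 and WT 2). The other held 2 libraries labelled as Lats1/2 knockout (KO 1 and KO 2), with genotype Lats1fl/fl; Lats2fl/fl; Sox9-CreER. Lats1 and Lats2 encode Hippo pathway kinases, which inhibit YAP and TAZ, and Sox9-CreER is a Cre recombinase that acts, after tamoxifen, in cells expressing Sox9. The sources used here give neither the age of the mice, the time after Cre induction nor the way the cells were isolated, and do not say whether wild-type mice carried Cre or floxed alleles.

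TNF superfamily ligands are mostly trimeric membrane proteins, some of which are shed, and they act on receptors with cysteine-rich extracellular repeats. Receptors with a cytoplasmic death domain can start caspase-dependent death or NF-kB signalling, and most of the others recruit TRAF adaptors. In lymphoid tissue many members serve as co-stimulatory or survival signals between T cells, B cells and antigen-presenting cells, while TNF receptor 1, the lymphotoxin beta receptor and Fn14 are also used by epithelial and stromal cells.

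Libraries held between 3566387 and 5925601 counts. Levels are given in CPM, counts scaled to library size, and each pair of values is replicate 1 and then replicate 2 of a group. Lower counts were seen for neither target of the deletion: Lats1 was at 50.8 and 65.6 CPM in wild type against 70.0 and 79.2 CPM in the libraries labelled knockout, and Lats2 at 114 and 102 CPM against 163 and 121 CPM. Counts over whole gene models do not check a deletion of some exons, so the group of KO 1 and KO 2 is called the knockout group by its label only. Of 8 duct markers, 5 were higher in the libraries labelled knockout, which compares the groups and does not check the labelled cell type. The summed level of all 8 was 633 and 691 CPM in wild type and 3123 and 3111 CPM in KO 1 and KO 2. Markers of other cells were present as well. In wild type the acinar, fibroblast, islet, T and NK cell, B cell and endothelial sums each exceeded the duct sum. The fibroblast sum did so in KO 1 and KO 2, and the acinar sum in KO 2. The lists hold different genes, so their sums are no shares of cells. Levels given below are therefore not those of duct cells alone. The 10 T and NK cell markers summed to 1288 and 1300 CPM in wild type against 55.1 and 25.6 CPM in the knockout group, and 8 B cell markers to 1191 and 1070 against 87.5 and 36.1 CPM. The 8 macrophage markers summed to 247 and 201 CPM in wild type against 2846 and 2111 CPM in the knockout group, and 7 fibroblast markers to 2972 and 2600 against 14983 and 9433 CPM. The 6 dendritic cell markers summed to 170 and 196 against 31.2 and 30.9 CPM, 7 islet markers to 1147 and 2179 against 279 and 163 CPM, and 9 acinar markers, with Amy2a2 at 0, to 44083 and 79133 against 154 and 3523 CPM. The 6 neutrophil markers summed to 15.9 and 16.2 against 33.0 and 18.1 CPM, with Ly6g at 0 in a group. For 6 endothelial markers the sums were 1061 and 1014 against 469 and 462 CPM. All 10 T and NK cell, all 8 B cell, 5 dendritic cell and 5 endothelial markers fell, all 8 macrophage markers and 6 fibroblast markers rose. None of the 8 tested acinar markers passed with edgeR, and 3 of the 7 islet markers fell. With DESeq2, 6 markers of each of these 2 lists fell. In such bulk libraries fewer cells of a type and less RNA per cell cannot be told apart, and the part of these cell types in the results below was not tested.

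Lymphotoxins, co-stimulatory receptors and the 2 tested B cell survival receptors were lower in the libraries labelled knockout. TNF, its 2 receptors, the lymphotoxin beta receptor and the TWEAK receptor Fn14 (Tnfrsf12a) were higher. Of the 44 members, 37 passed the filter on low counts and were tested. Of these, 10 rose and 17 fell (quasi-likelihood test of edgeR, Benjamini-Hochberg adjusted over 13990 genes, threshold 0.05), and 10 did not pass. Over all 13990 genes tested, 22.0% rose and 20.2% fell, 42.2% in all. The 2 groups did not overlap in 34 of the 37 tested members, and in 74.3% of all genes tested. Among ligands 2 of 12 tested rose and 6 fell, with a median log2 change of -1.76. Among receptors 8 of 25 tested rose and 11 fell, with a median of 0.15. The median over all genes tested was -0.01. Members entered the test through the group in which they were expressed, so these counts and medians describe the tested members and are no measure of the family.

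**Figure D1:**
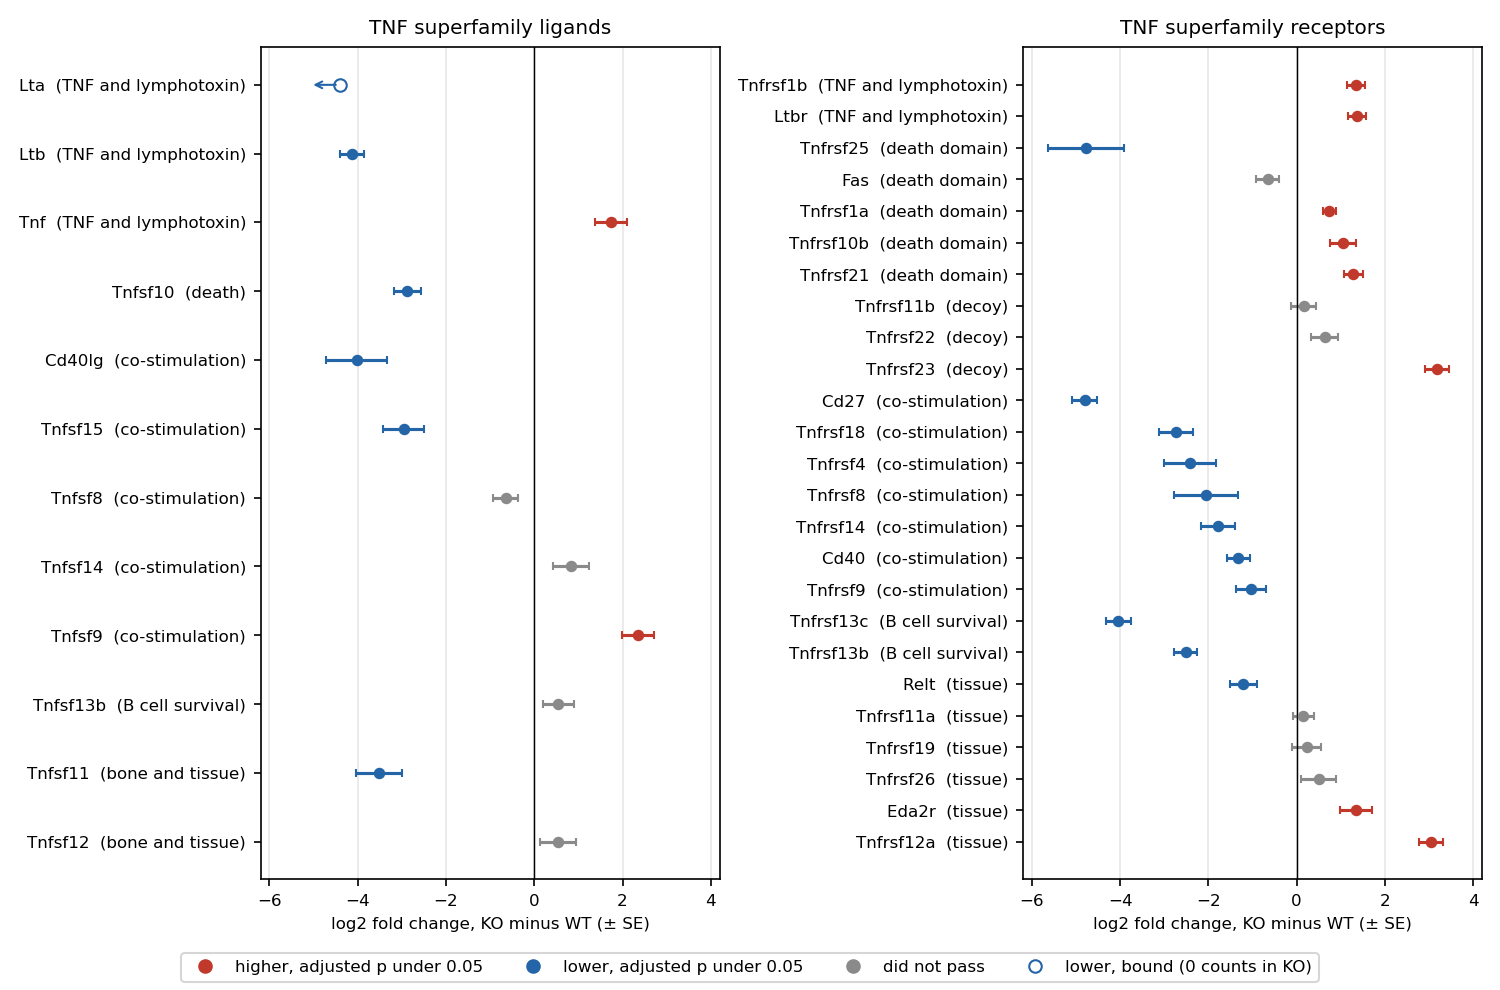
Log2 fold change of each tested member, libraries labelled knockout minus wild type, with a standard error derived from the edgeR test statistic (n = 2 libraries per group). Ligands are on the left and receptors on the right, grouped by role. Red members were higher and blue ones lower past the threshold, grey ones did not pass. Lta had 0 counts in both KO libraries and is drawn as an open circle at its bound. The 7 co-stimulatory receptors all lie left of 0.

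Among the founding ligands, Tnf moved in the opposite direction to Lta and Ltb. Tnf encodes the inflammatory cytokine TNF, and was at 4.40 and 9.21 CPM in wild type against 21.3 and 24.9 CPM in the knockout group. Both KO libraries were above both wild-type ones, a 3.35-fold rise (log2 change 1.74 ± 0.36 SE, edgeR adjusted p = 0.00555) that was 1.34 on the log2 scale without WT 1 and 2.39 without WT 2. Ltb encodes lymphotoxin beta, which anchors lymphotoxin alpha in the membrane of lymphocytes. It was at 80.2 and 66.5 CPM in wild type against 3.42 and 4.86 CPM in the knockout group, a 17.5-fold fall (log2 change -4.13 ± 0.27 SE, edgeR adjusted p = 2.05e-05). Lta, lymphotoxin alpha, was at 5.50 and 5.84 CPM in wild type and had 0 counts in KO 1 and KO 2. Against a floor of 3 counts over the KO group, or 0.269 CPM, it was at least 21.1-fold lower (edgeR adjusted p = 0.000894). The fall of Ltb stood beside a 32.1-fold lower sum of T and NK cell markers and an 18.3-fold lower sum of B cell markers, and the rise of Tnf, which macrophages and T cells can express, beside the same lower sums and an 11.1-fold higher sum of macrophage markers.

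These 3 ligand genes are neighbours within 10.9 kb of chromosome 17, and their upstream sequences are shown because the genes lie so close together and moved in opposite directions. Ltb lies at 35194439 to 35196320 on the plus strand (mm10), Tnf at 35199381 to 35202007 and Lta at 35203165 to 35205351, both on the minus strand. Between the models lie 3.06 kb (Ltb to Tnf) and 1.16 kb (Tnf to Lta). Sequences are from RefSeq (GRCm38.p6), written 5′ to 3′ on the gene's strand, and hold the part of the 250 bases before the RefSeq start that lies outside the deposited gene model. RefSeq held the 250 bases for 34 of the 44 members, and in 31 of them some bases lay outside the model. Capitals mark a match to 1 of 3 motifs searched on both strands, namely the TEAD motif GGAATG, the AP-1 motif TGANTCA and the NF-kB consensus.
Ltb (chr17:35194257-35194438, plus strand): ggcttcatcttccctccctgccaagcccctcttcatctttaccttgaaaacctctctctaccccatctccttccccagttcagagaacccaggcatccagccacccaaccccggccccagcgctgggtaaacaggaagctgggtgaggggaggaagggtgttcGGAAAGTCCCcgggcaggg
Tnf (chr17:35202008-35202257, minus strand): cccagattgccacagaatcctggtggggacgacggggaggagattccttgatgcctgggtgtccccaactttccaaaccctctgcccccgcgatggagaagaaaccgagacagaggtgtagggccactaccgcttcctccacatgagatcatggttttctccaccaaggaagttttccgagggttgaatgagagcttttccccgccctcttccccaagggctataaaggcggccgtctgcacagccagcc
Lta (chr17:35205352-35205601, minus strand): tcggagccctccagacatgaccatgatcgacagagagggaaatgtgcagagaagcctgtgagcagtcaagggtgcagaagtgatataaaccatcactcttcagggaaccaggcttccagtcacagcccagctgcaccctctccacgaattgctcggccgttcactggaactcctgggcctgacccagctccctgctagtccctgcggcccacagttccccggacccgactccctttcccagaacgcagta
The capitals in Ltb are an NF-kB consensus match on the opposite strand, 87 to 78 bases before the RefSeq start. No letters in the Tnf or Lta window matched any of the 3 motifs. Of all 32851 RefSeq promoter windows of 250 bases, 12.6% held the TEAD motif, 6.75% the AP-1 motif and 3.90% the NF-kB consensus. A match describes letters only and is not a bound site.

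Of the co-stimulatory ligands, which activate lymphocytes through their receptors, Tnfsf9 rose and Cd40lg and Tnfsf15 fell. Tnfsf9, the ligand of the T cell receptor CD137, was at 2.75 and 5.17 CPM in wild type against 20.9 and 20.2 CPM in the knockout group. That was a 5.09-fold rise (log2 change 2.35 ± 0.36 SE, edgeR adjusted p = 0.00125) with no overlap between groups. Cd40lg, the ligand with which helper T cells activate B cells, stood at 7.97 and 13.5 CPM in wild type. It was at 1.21 and 0.162 CPM in the knockout group, the second of which held 1 count, and fell 16.2-fold (log2 change -4.02 ± 0.69 SE, edgeR adjusted p = 0.00219). Its log2 change was -5.84 without KO 1 and -3.09 without KO 2. Tnfsf15 (TL1A), known as an endothelial and myeloid ligand, was at 11.3 and 10.3 CPM in wild type against 1.81 and 0.971 CPM in the knockout group. It fell 7.79-fold (edgeR adjusted p = 0.00136). Beside it, the sums of endothelial and dendritic cell markers were 2.23-fold and 5.90-fold lower, and that of macrophage markers 11.1-fold higher. Tnfsf8, the CD30 ligand, was at 17.6 and 23.8 CPM against 15.1 and 11.5 CPM and did not pass (log2 change -0.65 ± 0.29 SE, edgeR adjusted p = 0.104). Tnfsf14 (LIGHT) was at 3.85 and 4.94 CPM against 9.46 and 6.47 CPM and did not pass either (0.84 ± 0.41 SE, edgeR adjusted p = 0.132).

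The death ligand Tnfsf10 and the osteoclast factor Tnfsf11 fell, and the other tested ligands did not pass. Tnfsf10 (TRAIL), which triggers apoptosis through death receptors, was at 25.0 and 30.6 CPM in wild type against 3.82 and 3.72 CPM in the knockout group. It fell 7.34-fold (log2 change -2.87 ± 0.30 SE, edgeR adjusted p = 0.000169). Tnfsf11 (RANKL), needed for osteoclasts and lymph node formation, was at 20.1 and 11.9 CPM in wild type against 2.01 and 0.809 CPM in the knockout group. It fell 11.4-fold (log2 change -3.52 ± 0.51 SE, edgeR adjusted p = 0.00092), with -4.25 without KO 1 and -2.94 without KO 2. In both genes the KO libraries lay below both wild-type ones. Tnfsf12 (TWEAK), the ligand of Fn14, was at 7.97 and 4.05 CPM against 8.85 and 8.42 CPM (log2 change 0.54 ± 0.41 SE, edgeR adjusted p = 0.325). Tnfsf13b (BAFF), a B cell survival factor, was at 9.07 and 8.32 against 15.7 and 9.71 CPM (0.54 ± 0.35 SE, edgeR adjusted p = 0.246). Exons of Tnfsf12 overlap those of the read-through model Tnfsfm13 on the same strand over 731 bases, so its reads may have been shared or dropped. Exons of Tnfsf9 overlap a model on the other strand over 192 bases, and the use of strand in the counting is not given in the sources used here.

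**Figure D2:**
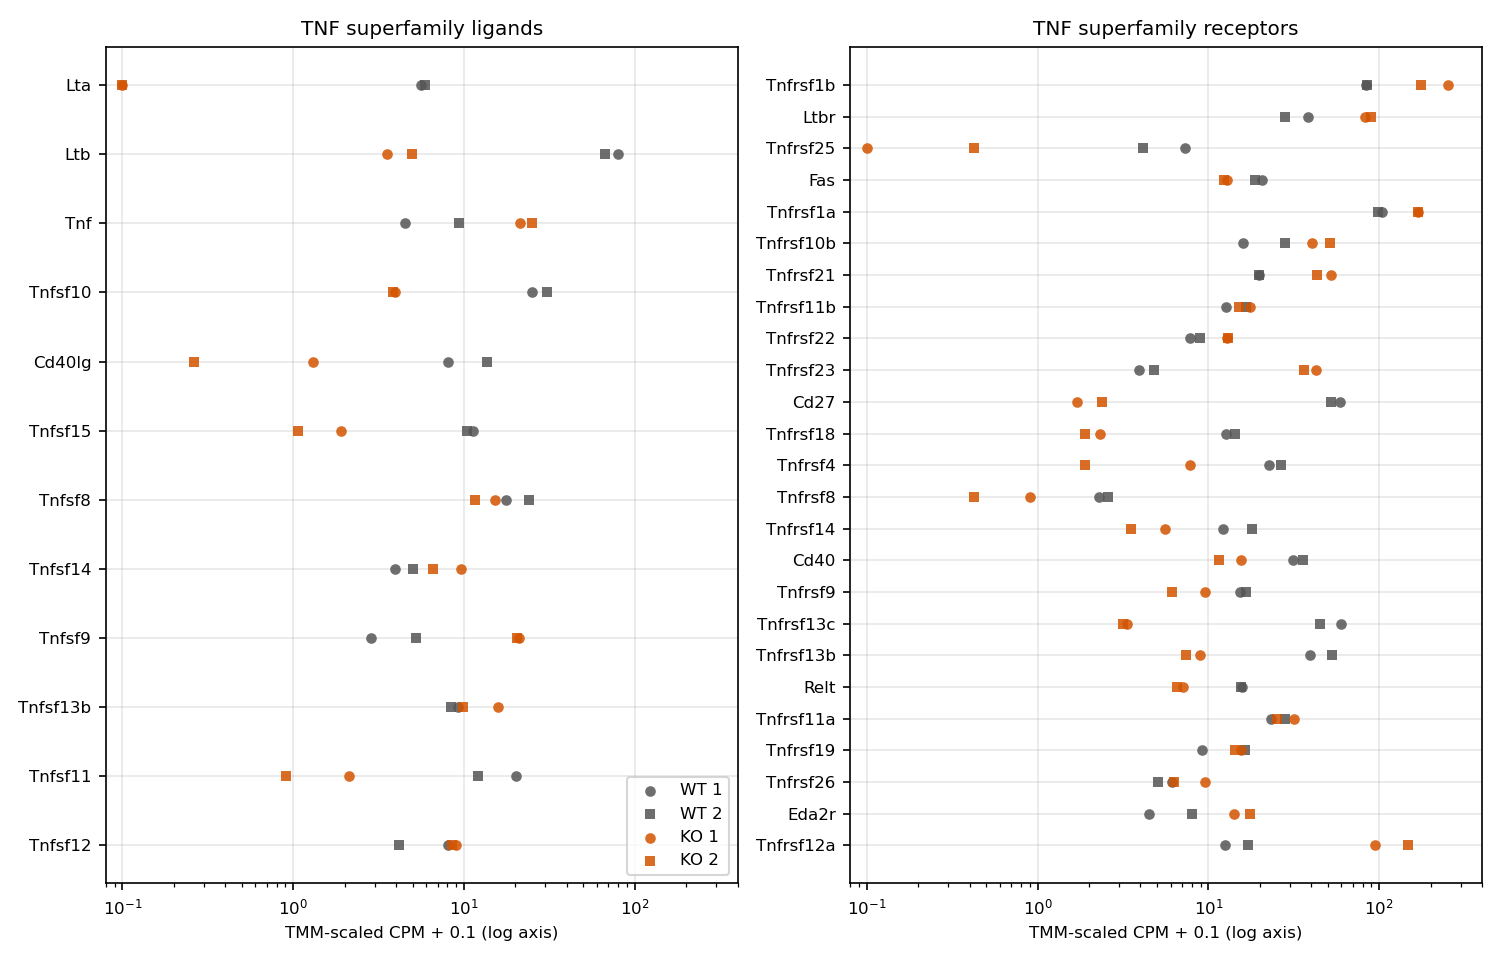
Level of each tested member in each library, as TMM-scaled CPM plus 0.1 on a log axis. Circles are replicate 1 and squares replicate 2, grey for wild type and orange for the libraries labelled knockout. Tnfrsf12a stood at 12.4 and 16.9 CPM in wild type against 94.0 and 148 CPM, and Lta at 0 counts in both KO libraries.

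TNF receptors 1 and 2 and the lymphotoxin beta receptor rose. Tnfrsf1a, TNF receptor 1, a death domain receptor found on most cell types, was at 103 and 98.0 CPM in wild type against 169 and 168 CPM in the knockout group. It rose 1.67-fold (log2 change 0.74 ± 0.15 SE, edgeR adjusted p = 0.00548). Tnfrsf1b, TNF receptor 2, typical of leukocytes and endothelium, was at 83.5 and 84.5 CPM in wild type against 253 and 174 CPM in the knockout group. It rose 2.54-fold (log2 change 1.34 ± 0.20 SE, edgeR adjusted p = 0.00113). Ltbr, the lymphotoxin beta receptor of epithelial, stromal and myeloid cells, was at 38.2 and 28.1 CPM in wild type against 82.1 and 89.4 CPM in the knockout group. It rose 2.59-fold (log2 change 1.37 ± 0.21 SE, edgeR adjusted p = 0.00109). For all 3 receptors the KO libraries lay above both wild-type libraries. In the same libraries the sums of macrophage, fibroblast and duct markers were 11.1-fold, 4.38-fold and 4.71-fold higher, and those of T and NK cell, B cell, dendritic cell and endothelial markers 32.1-fold, 18.3-fold, 5.90-fold and 2.23-fold lower.

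Tnfrsf12a and Tnfrsf23 showed the largest rises among the tested members. Tnfrsf12a (Fn14; chromosome 17, 23675447 to 23677449) is the receptor of TWEAK and is known as an injury- and growth factor-induced gene of epithelial and mesenchymal cells. It stood at 12.4 and 16.9 CPM in wild type against 94.0 and 148 CPM in the knockout group, 14.6 ± 3.17 against 121 ± 38.0 CPM (SD, n = 2). The rise was 8.23-fold (log2 change 3.04 ± 0.28 SE, edgeR adjusted p = 0.000101). Tnfrsf23 (chromosome 7, 143665809 to 143685872), a mouse decoy receptor for TRAIL that lacks a death domain, was at 3.85 and 4.72 CPM in wild type against 42.7 and 36.3 CPM in the knockout group. It rose 9.10-fold (log2 change 3.19 ± 0.28 SE, edgeR adjusted p = 6.95e-05). In each gene the lowest KO library exceeded the highest wild-type library several times over. Exons of Tnfrsf23 overlap a model on the opposite strand over 164 bases. The bases upstream of both are shown as those of the 2 members with the largest rise.
Tnfrsf12a (chr17:23677450-23677699, minus strand): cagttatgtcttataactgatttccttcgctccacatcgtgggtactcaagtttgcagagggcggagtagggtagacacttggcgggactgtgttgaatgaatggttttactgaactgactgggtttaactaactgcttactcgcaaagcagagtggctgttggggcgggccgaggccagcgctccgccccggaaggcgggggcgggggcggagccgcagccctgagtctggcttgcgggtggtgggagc
Tnfrsf23 (chr7:143685876-143686125, minus strand): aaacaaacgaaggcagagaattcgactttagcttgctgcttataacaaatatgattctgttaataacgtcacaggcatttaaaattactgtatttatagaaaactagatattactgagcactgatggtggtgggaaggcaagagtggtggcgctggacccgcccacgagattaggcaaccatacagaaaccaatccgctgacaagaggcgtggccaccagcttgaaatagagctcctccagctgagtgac
Neither window matched the TEAD, AP-1 or NF-kB letters. Among the 8 higher members with a RefSeq promoter window, 2 held a TEAD match, Tnfrsf1b and Eda2r, and 1 of the 15 lower members did, Tnfsf15. A TEAD match was also held by 1 of 6 members that did not pass and by 3 of 5 that were not tested.

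Among the other death domain receptors, Tnfrsf10b and Tnfrsf21 rose, Tnfrsf25 fell and Fas did not pass. Tnfrsf21 (DR6) was at 19.8 and 19.6 CPM in wild type against 52.3 and 43.2 CPM in the knockout group, a 2.43-fold rise (log2 change 1.28 ± 0.22 SE, edgeR adjusted p = 0.00196). Tnfrsf10b (DR5), the mouse death receptor of TRAIL and a p53 target, was at 15.9 and 28.1 CPM in wild type against 40.2 and 51.2 CPM in the knockout group. It rose 2.06-fold (log2 change 1.05 ± 0.29 SE, edgeR adjusted p = 0.0197) but missed the threshold when WT 1 or KO 2 was left out (log2 change 0.72 and 0.90, edgeR adjusted p = 0.0833 and 0.111). Tnfrsf25 (DR3), the TL1A receptor of T cells, was at 7.15 and 4.05 CPM in wild type against 0 and 0.324 CPM in the knockout group. With 2 counts in the KO group, the ratio of pooled counts was 30.3 (95% exact binomial interval 7.91 to 258, counting error only; edgeR adjusted p = 0.00272). Its fitted log2 change was -4.77, with -4.00 without KO 1 and -7.60 without KO 2, the latter set against a library with 0 counts. Fas, the receptor of Fas ligand, was at 20.6 and 18.7 CPM in wild type against 12.7 and 12.3 CPM in the knockout group. The groups did not overlap, but the difference did not pass (log2 change -0.65 ± 0.26 SE, edgeR adjusted p = 0.0748). It passed with upper quartile scaling (-0.85, edgeR adjusted p = 0.0285).

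All 7 co-stimulatory receptors fell. Cd27, a receptor of T cells and memory B cells, was at 58.5 and 52.4 CPM in wild type against 1.61 and 2.27 CPM in the knockout group, a 27.9-fold fall (log2 change -4.80 ± 0.28 SE, edgeR adjusted p = 1.61e-05). Tnfrsf18 (GITR), high on regulatory T cells, was at 12.6 and 14.2 CPM against 2.21 and 1.78 CPM and fell 6.69-fold. Exons of Tnfrsf18 overlap a model on the other strand over 414 bases, and those of Cd27 a microRNA model on the same strand over 129 bases, so reads may be shared there. Cd40, carried by B cells, dendritic cells and macrophages, was at 31.3 and 35.7 CPM against 15.5 and 11.5 CPM and fell 2.49-fold (log2 change -1.32 ± 0.25 SE, edgeR adjusted p = 0.00357). In the same libraries the sums of T and NK cell, B cell and dendritic cell markers were 32.1-fold, 18.3-fold and 5.90-fold lower, and that of macrophage markers 11.1-fold higher. Tnfrsf4 (OX40), induced on activated T cells, was at 22.5 and 26.5 CPM against 7.65 and 1.78 CPM, and KO 1 held several times the level of KO 2. It fell 5.34-fold (log2 change -2.42 ± 0.59 SE, edgeR adjusted p = 0.0188), with -3.76 without KO 1 and -1.65 without KO 2, and missed the threshold when WT 1 or WT 2 was left out (edgeR adjusted p = 0.0536 and 0.0697).

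The remaining receptors of the co-stimulatory group had smaller or less stable falls. Tnfrsf14 (HVEM), the receptor of LIGHT, was at 12.1 and 18.0 CPM against 5.43 and 3.40 CPM. It fell 3.44-fold (edgeR adjusted p = 0.00672) and missed the threshold without KO 2 (edgeR adjusted p = 0.0586). Tnfrsf9 (CD137), the receptor of the Tnfsf9 product, was at 15.1 and 16.4 CPM against 9.46 and 5.99 CPM and fell 2.05-fold (log2 change -1.04 ± 0.33 SE, edgeR adjusted p = 0.0354). It missed the threshold on leaving out WT 1, WT 2 or KO 2 (adjusted p of edgeR = 0.0724, 0.117 and 0.215) or with DESeq2 (adjusted p = 0.0745). Tnfrsf8 (CD30), a marker of activated lymphocytes, was at 2.20 and 2.47 CPM against 0.805 and 0.324 CPM, with 6 counts in the KO group. Its 4.15-fold fall (edgeR adjusted p = 0.0471) missed the threshold on leaving out WT 1, KO 1 or KO 2 (adjusted p of edgeR = 0.163, 0.165 and 0.369), without the filter on low counts (0.137) or with DESeq2 (adjusted p = 0.196), and without WT 2 it was under the filter. Its log2 change of -2.05 became -2.75 without KO 1 and -1.47 without KO 2. With DESeq2, 5 of the 7 co-stimulatory receptors fell.

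The 2 tested receptors for BAFF and APRIL fell. Tnfrsf13c (the BAFF receptor) was at 59.6 and 44.7 CPM in wild type against 3.22 and 3.08 CPM in the knockout group, a 16.4-fold fall (log2 change -4.04 ± 0.28 SE, edgeR adjusted p = 2.73e-05). Tnfrsf13b (TACI) was at 39.0 and 52.8 CPM against 8.85 and 7.28 CPM and fell 5.71-fold (log2 change -2.51 ± 0.26 SE, edgeR adjusted p = 0.000169). Tnfrsf17 (BCMA), a plasma cell receptor, had 11 and 8 counts in wild type and 4 and 0 in KO 1 and KO 2 and was under the filter. The sum of B cell markers was 18.3-fold lower in the same libraries.

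Of the receptors known from ectodermal, bone and other tissues, Eda2r rose and Relt fell, while RANK, osteoprotegerin and TROY did not pass. Eda2r, a receptor of ectodysplasin A2 and a p53 target, was at 4.40 and 7.87 CPM in wild type against 14.1 and 17.3 CPM in the knockout group, a 2.53-fold rise (log2 change 1.34 ± 0.37 SE, edgeR adjusted p = 0.0183). It missed the threshold on leaving out WT 1, KO 1 or KO 2 (adjusted p of edgeR = 0.0829, 0.0535 and 0.105). Relt, a receptor of lymphoid tissue, was at 15.7 and 15.5 CPM against 7.04 and 6.47 CPM. It fell 2.30-fold (edgeR adjusted p = 0.0129) and missed the threshold on leaving out KO 1 or KO 2 (adjusted p of edgeR = 0.0574 and 0.0816). Tnfrsf11a (RANK), the receptor of RANKL, was at 23.1 and 27.9 CPM against 31.8 and 25.1 CPM. Tnfrsf11b (osteoprotegerin), the secreted decoy of RANKL, was at 12.6 and 16.4 CPM against 17.5 and 15.1 CPM. Tnfrsf19 (TROY), known from stem cell compartments, was at 9.07 and 16.2 CPM against 15.5 and 14.2 CPM. In these 3 genes the groups overlapped, with log2 changes of 0.15, 0.16 and 0.22 and edgeR adjusted p = 0.628, 0.682 and 0.622. Tnfrsf22, a decoy receptor for TRAIL like Tnfrsf23, was at 7.69 and 8.77 CPM against 12.7 and 12.9 CPM (log2 change 0.63 ± 0.31 SE, edgeR adjusted p = 0.129). Tnfrsf26 was at 6.05 and 4.94 CPM against 9.46 and 6.15 CPM (0.50 ± 0.40 SE, edgeR adjusted p = 0.343).

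The remaining 7 members were under the filter and were not tested. Edar, the ectodysplasin receptor, had 0 counts in all 4 libraries, and Cd70, the ligand of Cd27, had 0 counts in wild type and 2 and 0 in KO 1 and KO 2. The OX40 ligand Tnfsf4 had 1 and 1 counts in wild type and 3 and 7 in KO 1 and KO 2, a ratio of pooled counts of 3.63 (95% exact binomial interval 0.773 to 34.1). The GITR ligand Tnfsf18 had 0 counts in wild type and 1 and 6 in KO 1 and KO 2. Its 0.201 CPM in KO 1 was under the wild-type floor of 0.371 CPM (3 counts over the group), so a higher level rests on KO 2 and no fold is given. Fas ligand (Fasl), the death ligand of cytotoxic lymphocytes, had 5 and 9 counts in wild type and 2 and 2 in KO 1 and KO 2. Tnfsf13 (APRIL) had 3 and 4 counts against 4 and 6, and its exons overlap Tnfsfm13 and an antisense model. At this depth a difference in these members was not detectable by the test.

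Corrected for exon length, the leading members differed between the groups. The highest values in both wild-type libraries were those of Ltb, with a mean of 48.4, and then Tnfrsf1a, with a mean of 38.9 CPM per kb of exon. In the libraries labelled knockout Tnfrsf1a at 65.0, Tnfrsf12a at 62.6 and Tnfrsf1b at 55.9 CPM per kb stood above Ltbr at 36.4 CPM per kb. The order of those first 3 was not the same in both libraries, with Tnfrsf1b the highest in KO 1 at 66.1 and Tnfrsf12a the highest in KO 2 at 76.5 CPM per kb. These are group means of 2 libraries, given as levels with no test between genes. On this scale, Tnfrsf12a stood at 7.56 CPM per kb in wild type and Ltb at 2.73 CPM per kb in the libraries labelled knockout.

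Ligands and their receptors were set side by side for 25 known pairs, of which 18 had both genes tested and 9 had both genes past the threshold. Of these 9, 4 moved in the same direction and 5 in opposite directions. Tnf rose with Tnfrsf1a and Tnfrsf1b, and Cd40lg fell with Cd40, as did Tnfsf15 with Tnfrsf25. Lta fell where Tnfrsf1a and Tnfrsf1b rose, Ltb fell where Ltbr rose (-4.13 against 1.37 on the log2 scale), and Tnfsf10 fell where Tnfrsf10b rose (-2.87 against 1.05). Tnfsf9 rose where Tnfrsf9 fell (2.35 against -1.04). TWEAK (Tnfsf12) did not pass where its receptor Tnfrsf12a rose (0.54 against 3.04), and BAFF (Tnfsf13b) did not pass where Tnfrsf13c fell (0.54 against -4.04). The list does not hold every partner. Lta with Tnfrsf14, both of which fell, is not in it, nor are the decoy receptors Tnfrsf22 and Tnfrsf23 as partners of Tnfsf10. Set beside Tnfsf10, Tnfrsf23 would be a further pair with opposite directions (-2.87 against 3.19), and Tnfrsf22 did not pass. Pairs share genes and all come from the same 4 libraries, so the pairs are no independent tests. With 22.0% of all genes tested higher and 20.2% lower, same and opposite directions are both common among called genes. These counts are therefore no result about pairing.

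**Figure D3:**
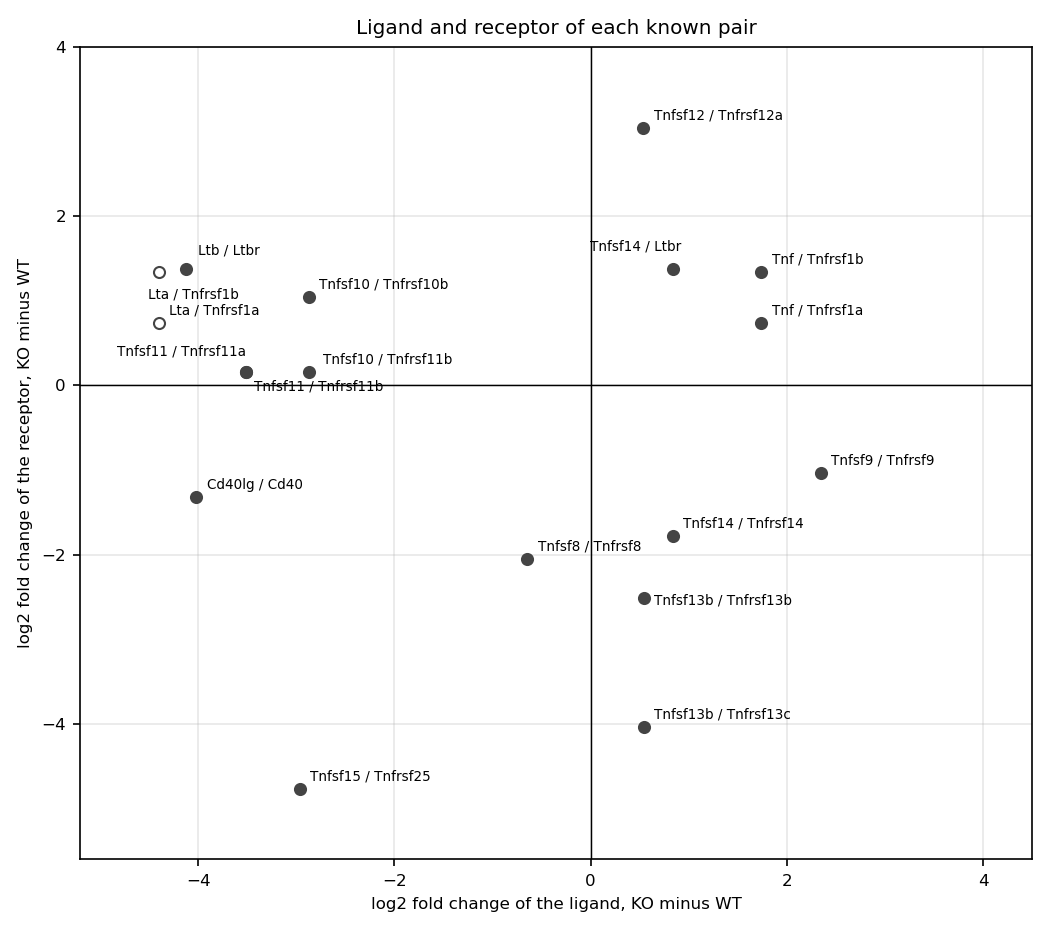
Log2 fold change of the ligand (horizontal) and of its receptor (vertical) for the 18 pairs with both genes tested, libraries labelled knockout minus wild type. Open circles place Lta at its bound. The lymphotoxin pairs and Tnfsf10 with Tnfrsf10b lie at the upper left, with the ligand lower and the receptor higher.

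Opposite calls were also found among members that neighbour each other in the genome. Of 13 adjacent pairs of members within 100 kb, 6 had both genes past the threshold, 4 with opposite and 2 with the same direction. The opposite pairs were Ltb and Tnf, Tnf and Lta, Cd27 and Ltbr on chromosome 6, and Tnfrsf1b and Tnfrsf8 on chromosome 4. Tnf is in 2 of these pairs, and the call of Tnfrsf8 was lost in several settings. Over all genes tested 22.0% rose and 20.2% fell, so opposite calls are common among any 2 called genes. The count is therefore no result about neighbours. Ltbr and Tnfrsf1a, 35.5 kb apart, both rose, and Cd27 lies 69.6 kb from Ltbr on their other side. Tnfrsf4 and Tnfrsf18, 9.55 kb apart, both fell. In the cluster of Tnfrsf26, Tnfrsf22 and Tnfrsf23 on chromosome 7, 78.2 kb long, only Tnfrsf23 passed, with log2 changes of 0.50, 0.63 and 3.19. Whether the 3 changes differ from each other was not tested. Tnfrsf1b and Tnfrsf8, 20.3 kb apart on the minus strand, are shown as the receptor pair with opposite calls in which both windows held motif letters.
Tnfrsf1b (chr4:145246871-145247120, minus strand): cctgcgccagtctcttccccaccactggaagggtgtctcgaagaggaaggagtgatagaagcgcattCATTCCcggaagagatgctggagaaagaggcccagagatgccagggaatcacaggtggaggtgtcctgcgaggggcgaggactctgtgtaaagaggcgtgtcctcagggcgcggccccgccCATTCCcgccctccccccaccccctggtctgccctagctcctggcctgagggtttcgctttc
Tnfrsf8 (chr4:145315165-145315414, minus strand): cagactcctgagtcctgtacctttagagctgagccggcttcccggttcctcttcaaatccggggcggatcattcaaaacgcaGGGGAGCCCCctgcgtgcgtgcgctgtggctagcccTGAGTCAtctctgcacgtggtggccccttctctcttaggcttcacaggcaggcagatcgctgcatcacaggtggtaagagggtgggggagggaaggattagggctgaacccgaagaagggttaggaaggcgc
The capitals in Tnfrsf1b are 2 TEAD matches on the opposite strand, 183 to 178 and 62 to 57 bases before the start. The capitals in Tnfrsf8 are an NF-kB consensus match on the opposite strand, 168 to 159 bases before the start, and an AP-1 match, 132 to 126 bases before it.

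**Figure D4:**
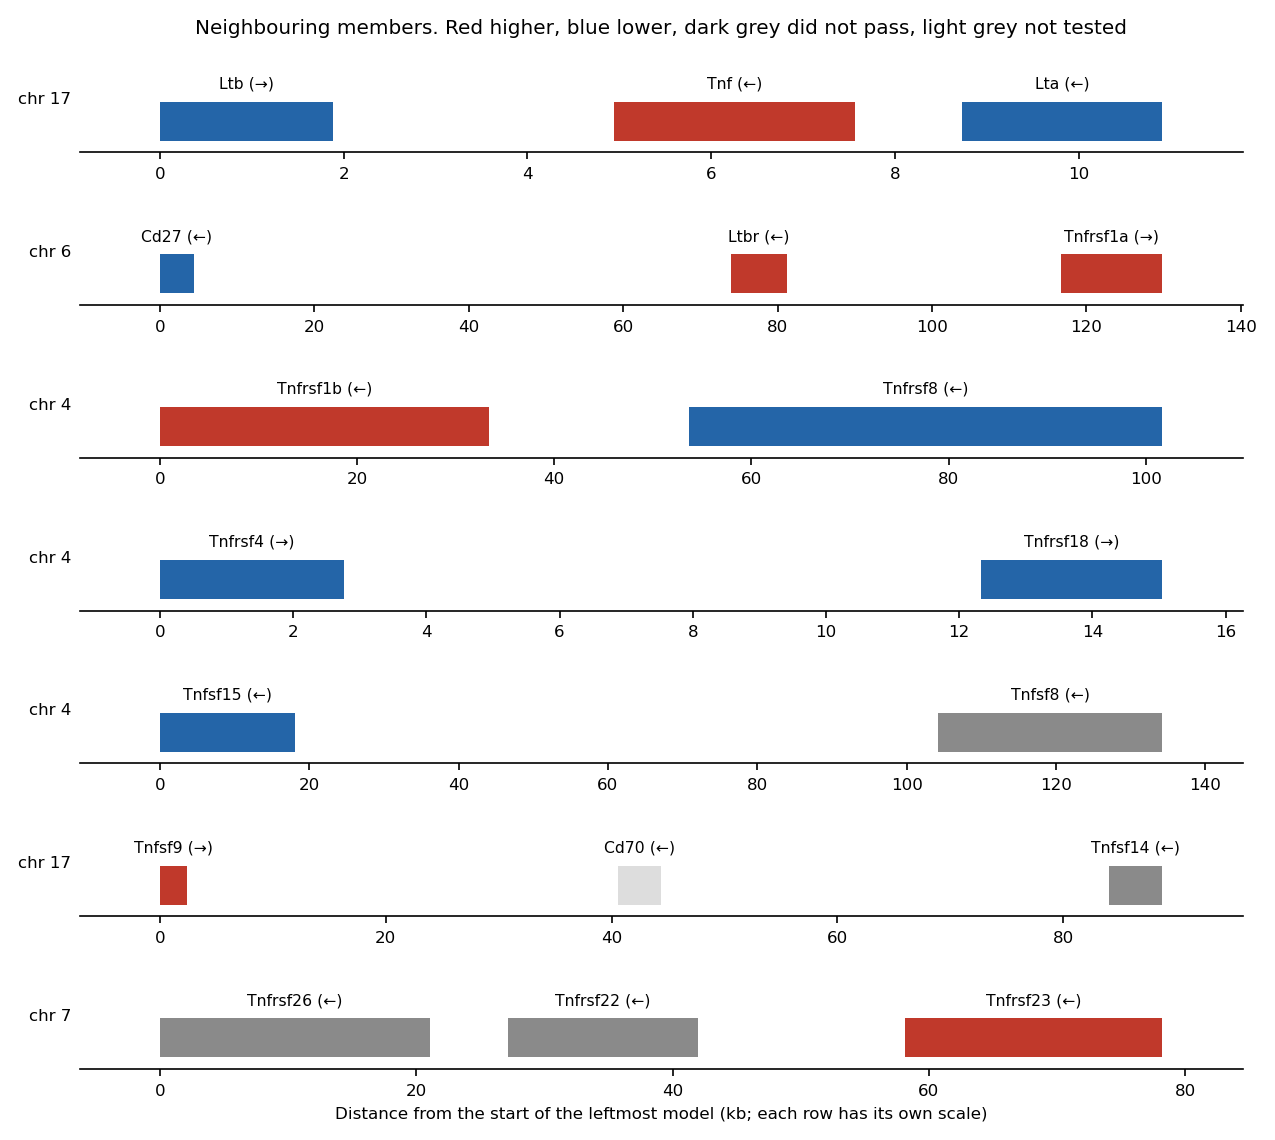
Neighbouring members drawn to scale within each row as distance in kb from the start of the leftmost model, with arrows giving the strand. Red models were higher in the libraries labelled knockout, blue ones lower, dark grey ones did not pass and light grey ones were not tested. Tnf lies between Ltb and Lta, with 3.06 and 1.16 kb between the models.

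Of 50 genes that carry TNF receptor signals inside the cell, 8 rose and 11 fell, against 22.0% and 20.2% of all genes tested, with a median log2 change of -0.02. The counts were 5 higher and 13 lower with upper quartile scaling, 5 and 12 with DESeq2 size factors, and 10 and 9 with scaling to library size only. Among TRAF adaptors, Traf4, an epithelial TRAF, rose 2.92-fold from 35.5 and 37.5 CPM in wild type to 93.6 and 119 CPM in KO 1 and KO 2 (log2 change 1.54 ± 0.19 SE, edgeR adjusted p = 0.000421). Traf6, which serves RANK, CD40 and Toll-like receptors, rose 1.80-fold (edgeR adjusted p = 0.00817). Traf1, an NF-kB-induced TRAF of lymphocytes, fell 4.27-fold from 74.2 and 87.0 CPM to 17.1 and 20.6 CPM (log2 change -2.09 ± 0.21 SE, edgeR adjusted p = 0.00013). Traf5, a TRAF of lymphocyte co-stimulation, fell 4.13-fold (edgeR adjusted p = 0.000441). Traf2 fell as well, so that 2 adaptors rose and 3 of the 9 fell.

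Of 8 genes of the ubiquitin system at the TNF receptor, 6 fell with edgeR and 4 with DESeq2. Birc2, the ubiquitin ligase cIAP1, fell 3.37-fold from 143 and 158 CPM in wild type to 44.5 and 44.8 CPM in KO 1 and KO 2 (log2 change -1.75 ± 0.17 SE, edgeR adjusted p = 0.000101). Rbck1, a subunit of the linear ubiquitin ligase complex, fell 1.75-fold (edgeR adjusted p = 0.00928) but missed the threshold without KO 2 (-0.59, edgeR adjusted p = 0.0565). Of 11 kinases and their binding partners 2 rose and 2 fell. Ikbkb, the kinase that marks NF-kB inhibitors for breakdown, fell 1.63-fold (log2 change -0.71 ± 0.16 SE, edgeR adjusted p = 0.00706). Map3k14, the kinase of the non-canonical NF-kB pathway, fell 1.57-fold (edgeR adjusted p = 0.0285) and missed the threshold on leaving out WT 1, WT 2 or KO 1 (adjusted p of edgeR = 0.0707, 0.115 and 0.137). Ripk1 and Map3k7 (TAK1) rose 1.40-fold and 1.41-fold (edgeR adjusted p = 0.0407 and 0.0463), but neither passed with upper quartile scaling (log2 change 0.29 and 0.30, edgeR adjusted p = 0.191 and 0.192) or DESeq2 size factors (edgeR adjusted p = 0.0516 and 0.0525), or with DESeq2 (adjusted p = 0.102 and 0.12). Ripk1 missed the threshold on leaving out WT 1, WT 2 or KO 1 (adjusted p of edgeR = 0.157, 0.128 and 0.14), and Map3k7 without any of the 4 libraries in turn (edgeR adjusted p = 0.0744 to 0.168).

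Of 5 NF-kB subunits 1 passed, and of 8 inhibitor and feedback genes 1 passed. Rela rose 1.39-fold (edgeR adjusted p = 0.0459), a call that was lost with upper quartile scaling, DESeq2 size factors and DESeq2 (log2 change 0.28, 0.46 and 0.46, adjusted p = 0.204, 0.0566 and 0.0847) and without any 1 of the 4 libraries (edgeR adjusted p = 0.066 to 0.265). The other 4 subunits did not pass. Among the inhibitor and feedback genes Tnip2, which binds the deubiquitinating protein A20, rose 1.99-fold (edgeR adjusted p = 0.0217) and missed the threshold on leaving out WT 1 or KO 2 (adjusted p of edgeR = 0.0963 and 0.121). Nfkbia and Tnfaip3, the feedback genes for the inhibitor IkB-alpha and for A20, had log2 changes of -0.25 ± 0.16 and -0.27 ± 0.19 SE (edgeR adjusted p = 0.229 and 0.279). None of 6 death effector genes passed with edgeR or with DESeq2, and 3 of them were higher at an unadjusted edgeR p under 0.05. Of 3 genes that govern shedding of TNF, the inactive rhomboids Rhbdf2 and Rhbdf1, which escort the TNF-cleaving protease ADAM17, rose. Rhbdf2 rose 3.18-fold from 30.0 and 52.1 CPM in wild type to 117 and 146 CPM in KO 1 and KO 2 (log2 change 1.67 ± 0.27 SE, edgeR adjusted p = 0.00239). Rhbdf1 rose 2.31-fold (edgeR adjusted p = 0.00233), while Adam17 had a log2 change of 0.42 ± 0.17 SE and did not pass (edgeR adjusted p = 0.0756).

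**Figure D5:**
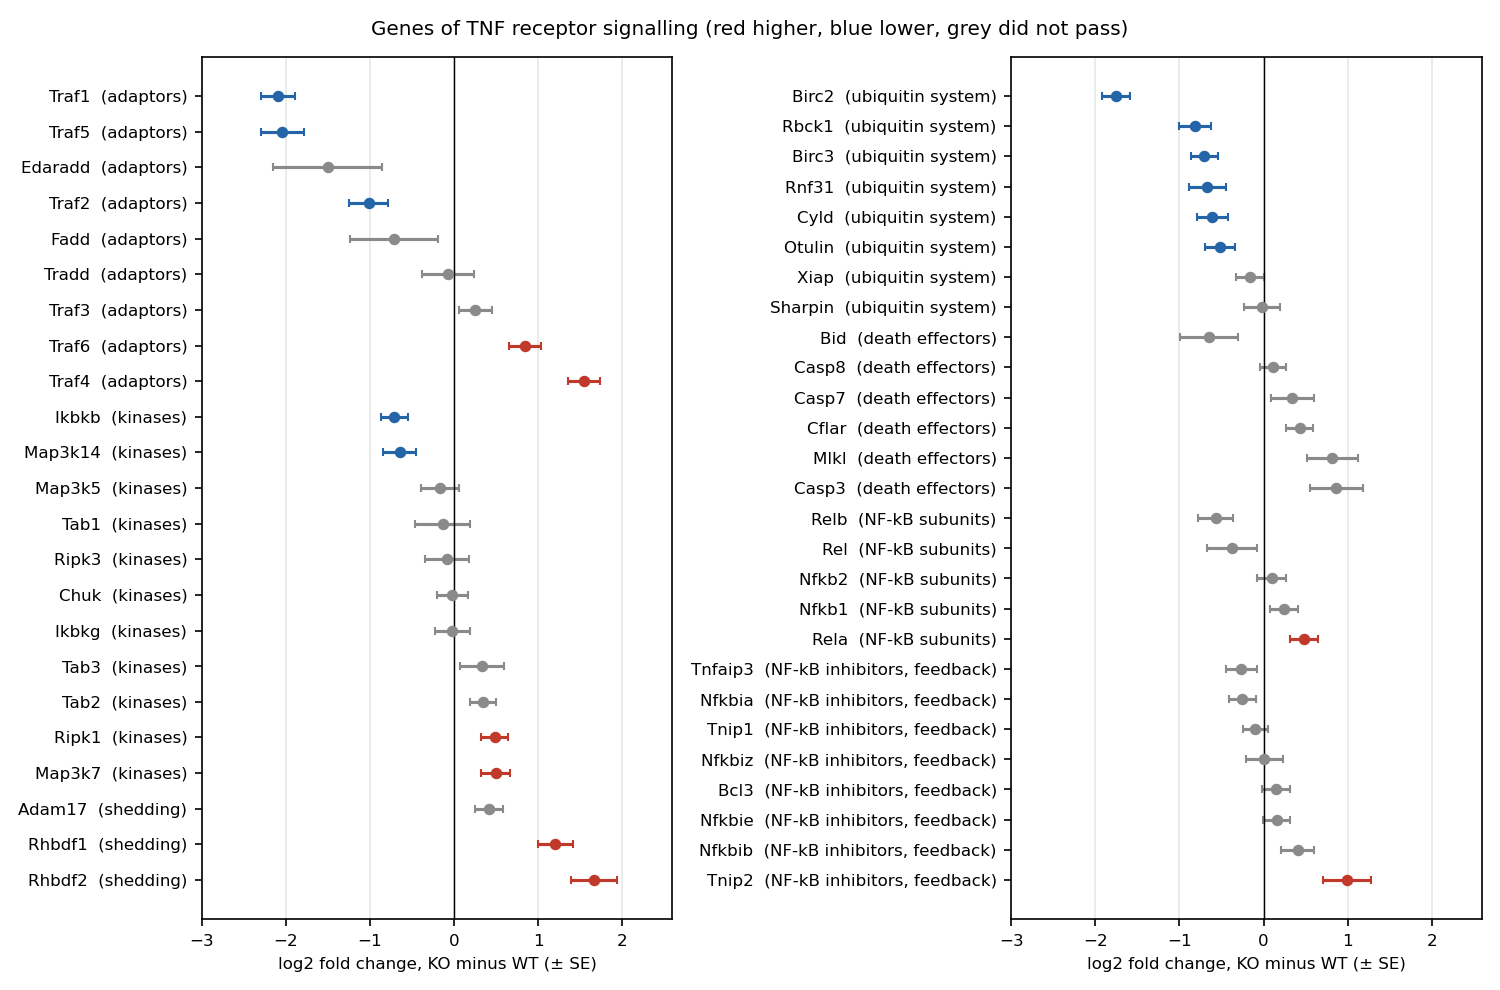
Log2 fold change with standard error of 50 TNF receptor signalling genes, libraries labelled knockout minus wild type (n = 2 libraries per group), grouped by role. Red genes were higher and blue ones lower past the threshold. Of 8 ubiquitin system genes 6 were lower, with Birc2 the farthest from 0, and the NF-kB inhibitors and feedback genes did not pass except Tnip2.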

How the data were processed

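The authors deposited unnormalized counts for 52535 gene models in each of the 4 libraries, 2 per genotype. Per the labels' protocols, 1 µg of total RNA entered a stranded SMARTer library kit. Per the submitters' processing notes, the build was mm10 and the tools TopHat and edgeR, without versions. The sources used here name no counting program, annotation or strand setting. Whether replicates came from separate animals is not stated. The p-values set the group difference against the spread between these libraries, which may be technical only. Counts differed within each pair by more than sampling noise (chi-square per degree of freedom 20.06 and 19.98).

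After filterByExpr and TMM, 13990 genes were tested in edgeR 4.0.16 under R 4.3.3 (robust glmQLFit, glmQLFTest) with genotype as the only term and 2 residual degrees of freedom. The Benjamini-Hochberg adjustment ran over all of these genes. Levels are TMM-scaled CPM, with the SD over 2 libraries where given. Each SE is the absolute log2 change divided by the square root of the edgeR F statistic. DESeq2 1.42.0 and other scalings were alternatives. The procedure was also run on simulated counts with a single fixed dispersion and a far smaller share of changed genes than called here. That run therefore does not measure the error rate in these data. Exon lengths and overlaps are from GENCODE M21, in which all 44 members were found, 38 with equal coordinates. Motifs were searched in all 250 bases before the RefSeq start, and the sequences shown were chosen after their values were seen. Members, lists and the naming rule were chosen with earlier results of these data known. The rule names every member past the threshold or with at least 5 CPM in a group, and per signalling role the 2 largest rises and falls. Birc2 and Birc3 and other similar genes may have shared reads.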

Additional observations from a re-analysis of the deposited data

How the results depend on the processing

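In all, 10 alternatives were run: 3 other scalings, no filter, DESeq2, the replicate number as a block, and leaving out each library. Of the 27 members past the threshold, 20 kept their call and direction in all 10 (8 higher, 12 lower), and the other 7 are named above with the settings that ended their call. Tnfrsf8 also missed the threshold with the block (adjusted p = 0.0541) and was not tested without WT 2. Without 1 library, 7 to 9 receptors and 1867 to 2276 of all genes were lower, 4 to 7 signalling genes were higher and 6 to 9 lower. The lowest counts of lower receptors and genes came without KO 2, of higher signalling genes without WT 1 (4, and 5 without WT 2) and of lower ones without WT 2 (6, and 7 without KO 2). Signalling genes higher numbered 5 with DESeq2 size factors, with upper quartile scaling and with DESeq2. Directions reversed, in members that did not pass, for Tnfrsf11a (-0.042 with upper quartile scaling, -0.019 to 0.35 without 1 library, lowest without KO 1), Tnfrsf11b (-0.038 with upper quartile scaling) and Tnfrsf19 (-0.11 to 0.71, lowest without WT 1). The cause was not tested. Under upper quartile scaling the median over all genes was -0.20 in place of -0.01, 39.4% of called genes were higher in place of 52.1%, and Tnfsf8 passed (-0.84, edgeR adjusted p = 0.0436). The replicate numbers do not pair the samples by any label, and deviations of same-numbered libraries correlated at 0.0355 across genes. With the replicate block, 2 ligands rose and 6 fell, 8 receptors rose and 10 fell, 11 signalling genes rose and 12 fell, and 3466 genes rose and 3190 fell in all. With 2 libraries a group, members with few counts, such as Tnfrsf8, Tnfrsf25 and Cd40lg, are limited by depth.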
